A study of Mus musculus with 4 samples.

Results

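The Nogo receptor family and its partners comprise the Nogo receptors Rtn4r, Rtn4rl1 and Rtn4rl2, the reticulons Rtn1, Rtn3 and Rtn4, and the receptors Lingo1, Ngfr, Tnfrsf19 and Lilrb4a, 10 genes chosen by symbol. Of these, 7 were found, in 8 rows because Lilrb4a stood under 2 gene IDs, among 18526 genes listed in the tables used here. Rtn4r, Rtn4rl2 and Lingo1 were not analysed here. Each of the 7 had 1 row that passed the filter on low counts and entered the fit across 15236 genes, and the second Lilrb4a ID, with 1 or 2 reads per library, did not. The set was put together with the difference between knockout and control at Rtn4rl1 already known, so the values of that contrast are given for the members as a description.

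RNA was sequenced from microglia, macrophages that live in brain tissue, sorted by fluorescence from C57BL/6 mice at embryonic day 14 (E14). The extraction protocol names the cortex as their source and the design text the telencephalon. One group carried a conditional knockout (Arid1acKO) of Arid1a, whose protein is part of the BAF chromatin remodeller, and the other was Arid1afl/fl, which carries the floxed alleles without deletion and served as control. The labels name neither the Cre driver nor whether a sample was 1 embryo or a pool. They list 4 samples, and the values used here come from 3 libraries, knockout replicate 2 and controls 5 and 6. Knockout replicate 1 was not analysed here, so there is no replicate error on the knockout side, and a mean ± SD is printed for the controls only (n = 2). Counted reads numbered 17262261 in the Arid1acKO library, 18608979 in control 5 and 13774075 in control 6.

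Nogo receptors are leucine-rich-repeat proteins held on the cell surface by a glycosylphosphatidylinositol (GPI) anchor. On neurons, the founding member Rtn4r binds the reticulon Nogo (Rtn4) and the myelin proteins Mag and Omg, and, having no cytoplasmic part, signals through Ngfr (p75) or Tnfrsf19 (Troy) together with Lingo1 to the small GTPase RhoA, which halts axon growth. Rtn4rl1, also called NgR3, binds chondroitin sulphate proteoglycans, and reticulons also shape the tubules of the endoplasmic reticulum in all cells. The paired immunoglobulin-like receptor Pirb is a second receptor for Nogo and belongs to the same leukocyte receptor family as Lilrb4a.

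How far a read can be placed on 1 member differs between the receptor genes, which is why stretches of coding sequence are shown first. Rtn4rl1 (ENSMUSG00000045287, GRCm38 chromosome 11, 75193783 to 75267769, plus strand) has 1 annotated transcript, and 63.6% of 1286 aligned coding bases were identical to those of Rtn4r. The following pair is the stretch of 120 bases, within exon 2 of each gene, at which the coding sequences of Rtn4rl1 (chr11:75265470-75265589, plus strand) and Rtn4r (chr16:18151451-18151570, plus strand) are most alike. Capitals mark the 35 bases that differ between them.
Rtn4rl1: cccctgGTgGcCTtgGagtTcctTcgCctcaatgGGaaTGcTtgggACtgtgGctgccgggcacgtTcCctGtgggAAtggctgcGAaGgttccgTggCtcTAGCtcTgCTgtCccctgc
Rtn4r: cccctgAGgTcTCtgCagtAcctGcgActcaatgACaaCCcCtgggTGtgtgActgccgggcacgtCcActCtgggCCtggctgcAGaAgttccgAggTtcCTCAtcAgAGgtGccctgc
Identity to Rtn4rl2 was 64.1%, the longest identical run against either relative was 14 bases, and 0.0% of the 50-base words of the Rtn4rl1 transcript occurred in a transcript of another gene. No exon of another gene overlapped it. Reads counted for Rtn4rl1 were thus not shared with a near-identical copy in this annotation.

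Lilrb4a (ENSMUSG00000112148, chromosome 10, 51490956 to 51496611, plus strand) is the opposite case. Its neighbour and paralog Lilr4b shares 96.0% of 907 aligned coding bases, with an identical run of 126 bases. The pair below is the first of their most similar stretches of 120 bases within a single exon (exon 4), at chr10:51492038-51492157 and chr10:51481744-51481863, both on the plus strand, with the 2 differing bases in capitals.
Lilrb4a: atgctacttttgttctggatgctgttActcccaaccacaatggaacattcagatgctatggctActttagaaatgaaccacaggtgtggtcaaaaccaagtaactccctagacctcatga
Lilr4b: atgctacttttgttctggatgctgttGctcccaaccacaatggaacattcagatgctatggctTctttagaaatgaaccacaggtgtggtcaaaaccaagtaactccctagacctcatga
Of the 50-base words of the Lilrb4a transcript, 27.8% occurred in Lilr4b. All of them occurred in the second ID that carries the symbol Lilrb4a, ENSMUSG00000062593 (51480612 to 51496613), which GENCODE M21 names Gm49339 and which runs through both genes. How reads that match several of these were assigned is not given in the sources used here, so the division of reads among them is uncertain.

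The targeted gene Arid1a had 68.9 CPM in the Arid1acKO library against 109 and 130 in the controls. The log2 fold change was -0.80 (SE 0.41), in the direction of the label. The Arid1acKO library lay 1.58-fold below control 5 and 1.89-fold below control 6, so Arid1a reads remained in it. EdgeR did not call Arid1a. CPM here stands for reads relative to a library total adjusted by its TMM factor. The sorted cells carried the defining markers of microglia, at levels that differed between libraries. All 12 microglia markers were detected in each library. Their sum was 18064 CPM in the Arid1acKO library against 24382 and 33515 in the controls. The knockout was lowest in 10 of these markers, where it was lowest in 31.1% of all tested genes. Their median log2 fold change was -0.94. The edgeR test called 0 of them, and 5 had an unadjusted p under 0.05, as did 6.00% of all tested genes. DESeq2 called 3 lower, where it called 1.31% of the genes with an adjusted p lower and 0.530% higher. The most abundant by its mean over the libraries, the purinergic receptor gene P2ry12, had 4073 CPM against 7212 and 8473. Border-associated macrophage markers summed to 1508 CPM against 740 and 748, with Dab2 at 1131 CPM against 350 and 345. The difference between these sums was no larger than that at Dab2 alone. Dab2 was not called by edgeR and was called higher by DESeq2. Mrc1, the next most abundant, had 243 CPM against 242 and 216, and Lyve1 and Cd163 had 0 in control 5. Of these 7 markers, the knockout was highest in 3, lowest in 1 and between the controls in 3 (38.0%, 31.1% and 30.9% of all tested genes). Their median log2 fold change was -0.14. Lists of markers were also read for neural progenitors, oligodendrocytes, endothelium, mural cells, erythroid cells, and monocytes and neutrophils. Each list on its own summed to at most 306 CPM in any library. In the order Arid1acKO library, control 5 and control 6, monocytes and neutrophils had 273, 274 and 306 CPM. Neural progenitors had 210, 151 and 153 CPM, and oligodendrocytes 44.3, 19.1 and 43.9. Erythroid cells had 44.0, 63.3 and 78.7 CPM, endothelium 27.0, 39.3 and 36.5, and mural cells 13.1, 12.5 and 15.6. The part of these differences in the values of Rtn4rl1 and Lilrb4a was not tested, and with 1 knockout library they cannot be told apart from the genotype.

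Rtn4rl1 was well detected in both control libraries and had few reads in the Arid1acKO library. It had 29 reads in the Arid1acKO library, 1376 in control 5 and 1053 in control 6. This was 1.59 CPM (95% exact Poisson interval 1.06 to 2.28) against 76.9 in control 5 and 78.0 in control 6. The controls differed from each other by 1.02-fold, and the Arid1acKO library lay 48.4-fold below control 5 and 49.2-fold below control 6. This single library was the lowest of 3 in 31.1% of all tested genes and at least 2-fold below both controls in 7.56%. The fitted log2 fold change was -5.60 (SE 0.60) against a control mean of 77.4 ± 0.827 CPM (SD, n = 2). By this value Rtn4rl1 ranked at 187 from the lowest of 15236 genes.

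**Figure D1:**
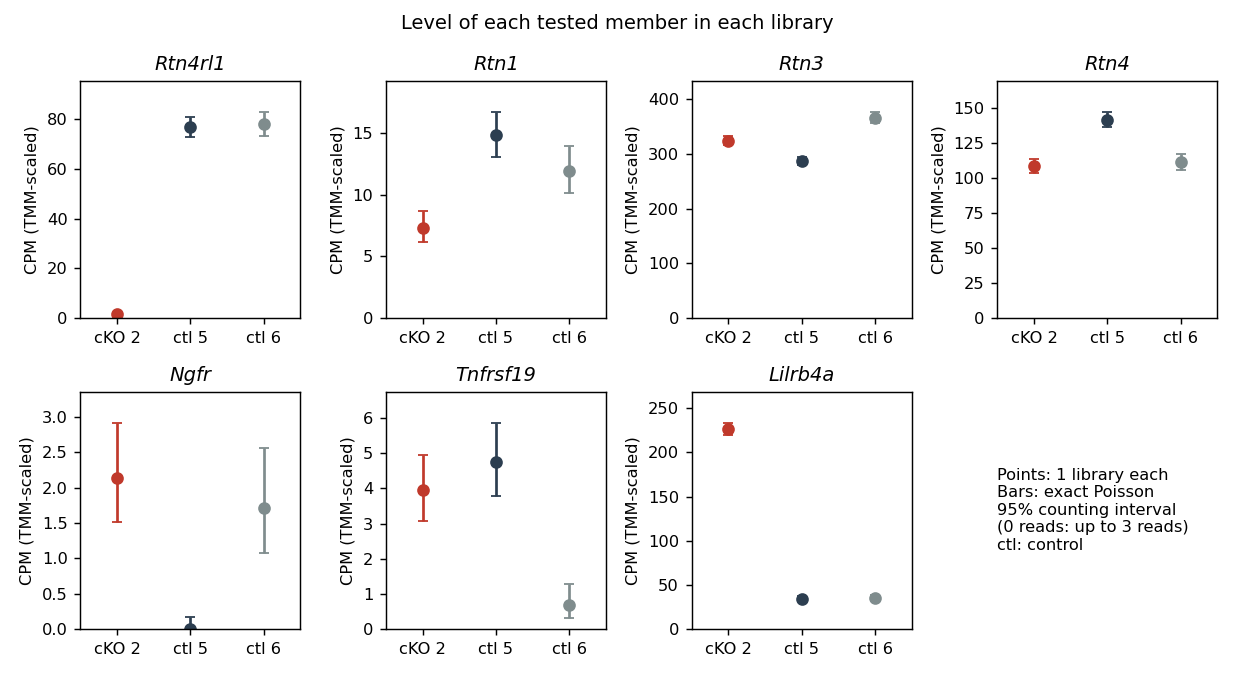
TMM-scaled CPM (vertical axes, linear and starting at 0) of each tested member in the Arid1acKO library (cKO 2) and controls 5 and 6, with 1 point per library and bars for the 95% exact Poisson counting interval (for 0 reads, up to 3 reads). Rtn4rl1 stands at 1.59 CPM in the Arid1acKO library against 76.9 and 78.0 in the controls, and Lilrb4a at 227 against 34.2 and 35.1.

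The reticulons showed no such gap. Rtn3 (ENSMUSG00000024758, chromosome 19, 7425901 to 7483289, minus strand), a widely expressed reticulon of the endoplasmic reticulum, was the most abundant member on the CPM scale, with 324 CPM in the Arid1acKO library, 287 in control 5 and 366 in control 6, so that the knockout lay between the controls. Rtn4, the Nogo gene (ENSMUSG00000020458, chromosome 11, 29692947 to 29744331, plus strand), had 108, 142 and 111 CPM in the same order. The knockout library was the lowest for Rtn4, by 1.03-fold below control 6, while the controls differed by 1.27-fold. The fitted log2 fold changes were -0.01 (SE 0.36) for Rtn3 and -0.22 (SE 0.39) for Rtn4, each smaller than its standard error. Exons of Eml6 on the opposite strand cover 18.4% of the exon bases of Rtn4, and the library kit does not mark strand. Eml6 itself had 2.68 CPM in the Arid1acKO library and 2.35 and 6.89 in the controls.

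Rtn1 (ENSMUSG00000021087, chromosome 12, 72211752 to 72409054, minus strand), a reticulon typical of neurons and neuroendocrine cells, was lower by a smaller step. It had 134 reads in the Arid1acKO library, 265 in control 5 and 161 in control 6, which is 7.34 CPM (interval 6.15 to 8.69) against 14.8 and 11.9. The knockout library lay 2.02-fold below control 5 and 1.63-fold below control 6, with a fitted log2 fold change of -0.87 (SE 0.73). Markers of neurons had no common direction. Of 12 tested, 0 were called by edgeR or DESeq2 and 0 had an unadjusted p under 0.05, with the Arid1acKO library lowest in 5, highest in 3 and between the controls in 4 and a median log2 fold change of 0.01. Over all tested genes the knockout was lowest in 31.1%, highest in 38.0% and between the controls in 30.9%, with a median of 0.05. The neuron markers summed to 137 CPM against 168 and 196 in the controls. The most abundant of them, the transcription factor gene Neurod6, had 41.8 CPM against 81.7 and 65.1. Other neuronal genes, named after their values were seen, differed from this, with Stmn2 at 9.25 CPM against 3.02 and 7.26 and Dcx at 31.6 against 12.1 and 35.6. Tbr1 and Nefm had 0 reads in control 5. The part of these neuronal transcripts in the Rtn1 values was not tested. In bulk samples, fewer cells of a type and less RNA per cell cannot be told apart.

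The signalling co-receptors had few reads, and the controls themselves disagreed. Ngfr, the p75 neurotrophin receptor (ENSMUSG00000000120, chromosome 11, 95568818 to 95587735, minus strand), was counted with 39 reads in the Arid1acKO library, 0 in control 5 and 23 in control 6, or 2.13, 0 and 1.70 CPM, where 0 reads allow up to 0.168 CPM. Its level in the Arid1acKO library exceeded that in control 6 by 1.25-fold, and the counting intervals of the 2 libraries overlapped (1.52 to 2.92 and 1.08 to 2.56 CPM). Tnfrsf19, the receptor Troy (ENSMUSG00000060548, chromosome 14, 60963834 to 61046855, minus strand), was counted with 72 reads in the Arid1acKO library, 85 in control 5 and 9 in control 6, or 3.94, 4.75 and 0.667 CPM. The knockout lay between the controls, which differed by 7.12-fold. Fitted log2 fold changes were 1.33 (SE 2.62) for Ngfr and 0.54 (SE 1.54) for Tnfrsf19. Without control 6, they were 4.35 and -0.26, and without control 5, 0.31 and 2.36. Control 5 was also the library without reads of the oligodendrocyte lineage genes Olig1 and Mog, which had 1 or more reads in the others, and the part of such transcripts in the Ngfr values was not tested.

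Lilrb4a, an inhibitory immunoglobulin-like receptor of myeloid cells, was the member that stood highest over both controls. It had 4143 reads in the Arid1acKO library, 612 in control 5 and 474 in control 6. The levels were 227 CPM (interval 220 to 234), 34.2 and 35.1 CPM. The controls agreed within 1.03-fold, and the Arid1acKO library exceeded them by 6.63-fold and 6.46-fold. This single library was the highest of 3 in 38.0% of all tested genes and at least 2-fold above both controls in 9.84%. The fitted log2 fold change was 2.71 (SE 0.37) against a control mean of 34.7 ± 0.664 CPM (SD, n = 2).

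Because reads can pass between Lilrb4a and its relatives, these were read as well, a choice made after their values were seen. Lilr4b had 176 CPM in the Arid1acKO library against 60.9 in control 5 and 47.6 in control 6. With Lilrb4a, Lilr4b and the read-through ID summed, the locus had 7365 reads against 1704 and 1118, and a log2 ratio of 2.18 between the Arid1acKO library and the control mean. Higher counts at Lilrb4a were therefore not matched by lower counts at its paralog. On chromosome 7, Lilra5 went the other way, with 4 reads in the Arid1acKO library against 417 and 153, and Lilra6 had 6.19 CPM against 3.57 and 5.19.

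**Figure D2:**
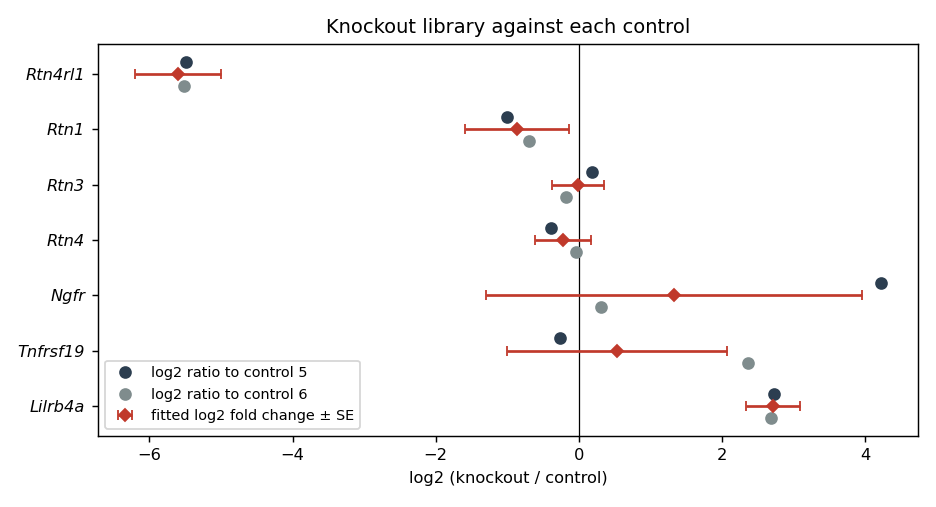
Log2 ratio of the Arid1acKO library to control 5 and to control 6 (circles, prior count 2) and the fitted log2 fold change ± SE (diamonds) for the 7 tested members. The ratios to both controls nearly coincide for Rtn4rl1 (-5.49 and -5.52) and Lilrb4a (2.73 and 2.69) and lie far apart for Ngfr and Tnfrsf19.

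Across the 7 tested members, the Arid1acKO library was the lowest of 3 in 3 (Rtn4rl1, Rtn1 and Rtn4), the highest in 2 (Ngfr and Lilrb4a) and between the controls in 2. Over all tested genes it was the lowest in 31.1%, the highest in 38.0% and between the controls in 30.9%. At 2-fold or more from both controls there was 1 member lower and 1 higher, where 7.56% and 9.84% of all tested genes were. The controls differed from each other at least 2-fold in 2 members (Ngfr and Tnfrsf19) and in 35.4% of all tested genes. In the edgeR quasi-likelihood test with Benjamini-Hochberg adjustment over all genes, 1 member was among those called lower (0.0263% of all genes) and 0 among those called higher (0.0131%), with 0.0394% called in either direction. The called member was Rtn4rl1. Nothing is read from these counts, or from the calls of single members that follow, since this contrast chose the members. They only describe how the calls depend on the settings. The call of Rtn4rl1 was lost with DESeq2 size factors, with upper-quartile factors and without a low-count filter. It was kept among genes at 5 CPM or more in at least 2 libraries, with genes in either table and with the DESeq2 Wald test. The log2 fold change of Rtn4rl1 stayed between -5.61 and -5.50 in every setting tried. Lilrb4a, which was not called, was called higher with DESeq2 (0.530% of genes were) and among genes at 5 CPM or more in at least 2 libraries.

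**Figure D3:**
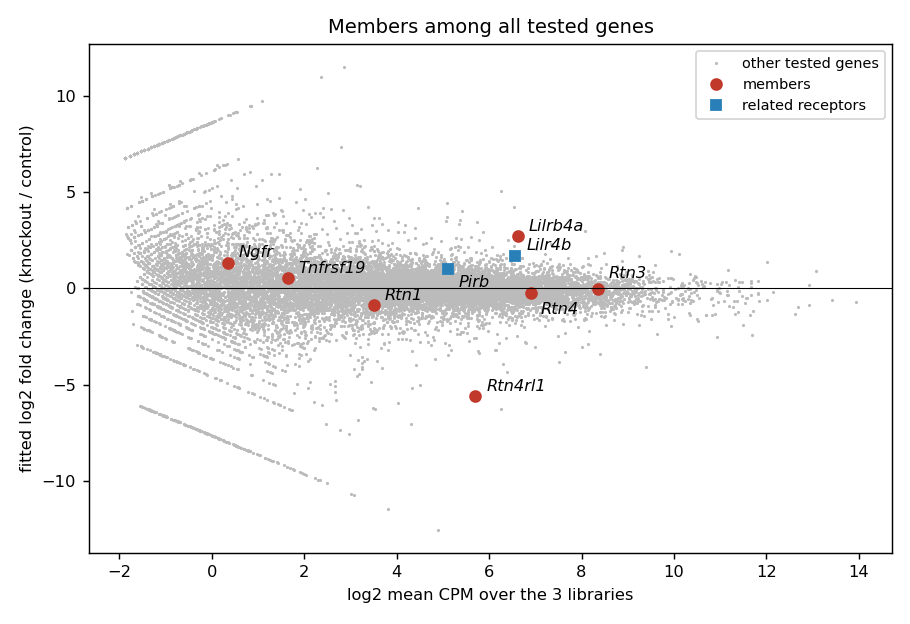
Fitted log2 fold change (vertical) against log2 mean CPM over the 3 libraries (horizontal) for all 15236 tested genes (grey), the 7 members (red) and the related receptors Pirb and Lilr4b (blue squares). Rtn4rl1 lies at -5.60 and Lilrb4a at 2.71, whereas Rtn3 and Rtn4 lie at -0.01 and -0.22.

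Levels of different genes can be compared only per length. As CPM per kilobase of exon in GENCODE M21, the order in the controls was Rtn3 (57.1 in control 5 and 72.9 in control 6), Rtn4rl1 (21.8 and 22.1), Rtn4 (20.2 and 15.9), Lilrb4a (6.54 and 6.72) and Rtn1 (2.97 and 2.40), followed by Tnfrsf19 (1.00 and 0.141) and Ngfr (0 and 0.495). The last pair overlapped, and Rtn4rl1 and Rtn4 lay close together in control 5 and further apart in control 6. On the same scale Rtn4rl1 was the lowest member in the Arid1acKO library, at 0.450 (interval 0.302 to 0.647), where Ngfr stood at 0.620 (0.441 to 0.847) with an overlapping interval. Lilrb4a stood second in that library by this length, at 43.4 against 64.5 for Rtn3. The exon lengths join all transcripts of a gene. With the length of the transcript that has the longest coding sequence, a setting chosen after the data were seen, Lilrb4a reached 24.8 and 25.4 and Rtn4 30.6 and 24.1 in the controls. In the Arid1acKO library Lilrb4a then stood first, at 164 against 64.6 for Rtn3. The places of Rtn4rl1, Rtn4 and Lilrb4a among themselves therefore depend on the length used, as does the first place in the Arid1acKO library. Rtn3 was above them with either length in both controls only.

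The gap at Rtn4rl1 was not shared by the genes next to it. Dph1, an enzyme gene of diphthamide synthesis whose start lies 2.54 kb upstream on the opposite strand, had 22.7 CPM in the Arid1acKO library against a control mean of 15.5 ± 3.64 (SD, n = 2). Rpa1, a subunit of the single-stranded DNA-binding complex whose nearer end lies 30.4 kb downstream, had 183 CPM against 208 and 188. Both were named for their position, after their values were seen. Within 500 kb on either side, 32 genes were tested. The knockout library was the lowest in 9, the highest in 13 and between the controls in 10 (31.1%, 38.0% and 30.9% of all tested genes). The median of their log2 fold changes was 0.07, against 0.05 over all tested genes. None was called by the edgeR quasi-likelihood test or by DESeq2 (0 and 0), and 2 had an unadjusted p under 0.05, a share close to the 6.00% of all tested genes.

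Those 2 were Serpinf1, which encodes the secreted factor PEDF, and Myo1c, an unconventional myosin. Serpinf1, 142 kb downstream, had 3.61 CPM in the Arid1acKO library against 18.5 in control 5 and 26.8 in control 6, a log2 fold change of -2.65 (SE 0.73, adjusted p = 0.477 by edgeR). Myo1c had 126 CPM against 50.7 and 64.8 (log2 fold change 1.13, SE 0.40). Of the other neighbours with the largest differences among those at a mean of 1 CPM or more, Mnt, Sgsm2 and Smg6 lay above both controls and Gm26836 and Ovca2, which overlaps Dph1 on the same strand, below, with log2 fold changes of 1.23, 2.21, 0.99, -3.44 and -1.28. Gm12338 stood at 0.93. None of these passed the test.

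**Figure D4:**
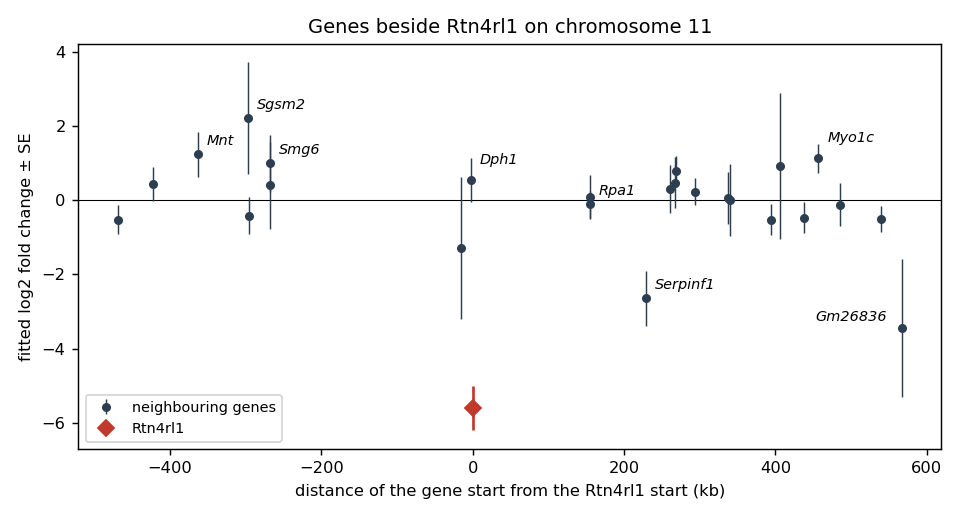
Fitted log2 fold change ± SE of the tested genes at a mean of 1 CPM or more within 500 kb of Rtn4rl1, against the distance of their start from that of Rtn4rl1 in kilobases. Rtn4rl1 lies at -5.60, and its nearest neighbour Dph1 at 0.55.

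The genes whose pattern over the 3 libraries was most like that of Rtn4rl1 were far less abundant. By Euclidean distance of centred log2 CPM, and leaving out predicted genes, they were Qprt (distance 0.317), Zc3h6 (0.337), Smim1 (0.367), Tmc7 (0.379) and Serpinb1c (0.425). Qprt, an enzyme of NAD synthesis from quinolinate, had 2 reads in the Arid1acKO library against 249 and 175. Zc3h6 had 3 reads against 168 and 133, and Tmc7 had 4 against 353 and 188. Each of the 5 had between 1 and 4 knockout reads, at which the distance depends on the prior count. With a prior count of 0.5 in place of 2, 1 of the 5 remained among the nearest.

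The other ligands and receptors of the pathway were read from a list of 20 genes, of which 13 were tested. The edgeR test called 0 of them higher and 0 lower, DESeq2 called 0, and 1 (Adgrb2, named after its value was seen) had an unadjusted p under 0.05. The knockout library was the highest in 8 members, the lowest in 1 and between the controls in 4 (38.0%, 31.1% and 30.9% of all tested genes). The median of the log2 fold changes was 0.47, against 0.05 over all tested genes. The median was 1.26 without control 6. Several tested members had few reads, and Rtn2, Omg, Olfm1 and Adgrb2 had 0 in control 5. Adgrb2, with 52 reads in the Arid1acKO library and 0 also in control 6, passed the low-count filter through the knockout alone.

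Among the abundant members of that list, the Nogo receptor Pirb had 52.1 CPM in the Arid1acKO library against 21.8 in control 5 and 29.8 in control 6, a log2 fold change of 1.02 (SE 0.48, adjusted p = 0.878 by edgeR). Pirb has close copies, and 37.3% of its 50-base words occur in other genes, mainly the Pira genes and predicted genes. Tspan3, a tetraspanin reported as a binding partner for Nogo, had 37.8 CPM against 69.8 and 72.4 (log2 fold change -0.91, SE 0.43). Ptprs, a receptor phosphatase that binds chondroitin sulphate proteoglycans, had 41.0 CPM against 25.1 and 34.7. The myelin-associated ligand Mag, named for its role after its value was seen, had 12.6 CPM against 17.8 and 10.1, so that the controls enclosed it. Omg had 25 reads against 0 and 12.

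Genes linked to reticulons or to the endoplasmic reticulum, most of them for its shape, were tested in 17 of 18 cases. The list also held Bace1, Rtn4ip1 and Sec61b, which are not genes of that shape. EdgeR and DESeq2 called 0 and 0, with 1 at an unadjusted p under 0.05. The knockout library was the lowest in 11, the highest in 2 and between the controls in 4 (31.1%, 38.0% and 30.9% of all tested genes). The median log2 fold change was -0.36, against 0.05 over all tested genes. Arl6ip1, a hairpin protein of endoplasmic reticulum tubules, had 693 CPM in the Arid1acKO library against 1197 and 1078 in the controls. Rrbp1 had 330 CPM against 396 and 336, and Reep5 had 183 against 196 and 240. Ckap4, a spacer protein of endoplasmic reticulum sheets named after its value was seen, was higher, at 51.7 CPM against 25.1 and 19.7.

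Further lists gave 0 calls by either tool. Of 7 tested neurotrophin receptor and ligand genes, 0 were called and 0 had an unadjusted p under 0.05. Their median was 0.09 on the log2 scale, or -0.24 without control 5. The p75-interacting genes Maged1 and Bex3 had 182 CPM against 110 and 145, and 190 against 119 and 123. Kidins220, a scaffold of neurotrophin receptors, had 112 CPM, between the controls at 97.7 and 153. Of 19 tested genes for synthesis or release of the GPI anchor that holds Rtn4rl1 in the membrane, 0 had an unadjusted p under 0.05, with the Arid1acKO library lowest in 4 and highest in 6 and a median of 0.08, or -0.13 without control 5. Over all tested genes the knockout was lowest in 31.1% and highest in 38.0%. Pigs, a transamidase subunit that attaches the anchor, had 203 CPM against a control mean of 153 ± 38.1 (SD, n = 2). Gpaa1 of the same complex had 168 CPM against 157 ± 27.8.

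Of 17 tested axon guidance receptors and inhibitory proteoglycans, 2 had an unadjusted p under 0.05 (6.00% of all tested genes had), and the median log2 fold change was 0.01, or -0.12 without control 5 and 0.30 without control 6. Ncan, a chondroitin sulphate proteoglycan of the kind that Rtn4rl1 binds, had 65.1 CPM in the Arid1acKO library against 166 and 106 in the controls. Nrp2, a semaphorin receptor, had 16.0 CPM against 31.2 and 60.4. Plxnb2 had 191 CPM against 95.7 and 161, and Nrp1 had 117 against 111 and 218.

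**Figure D5:**
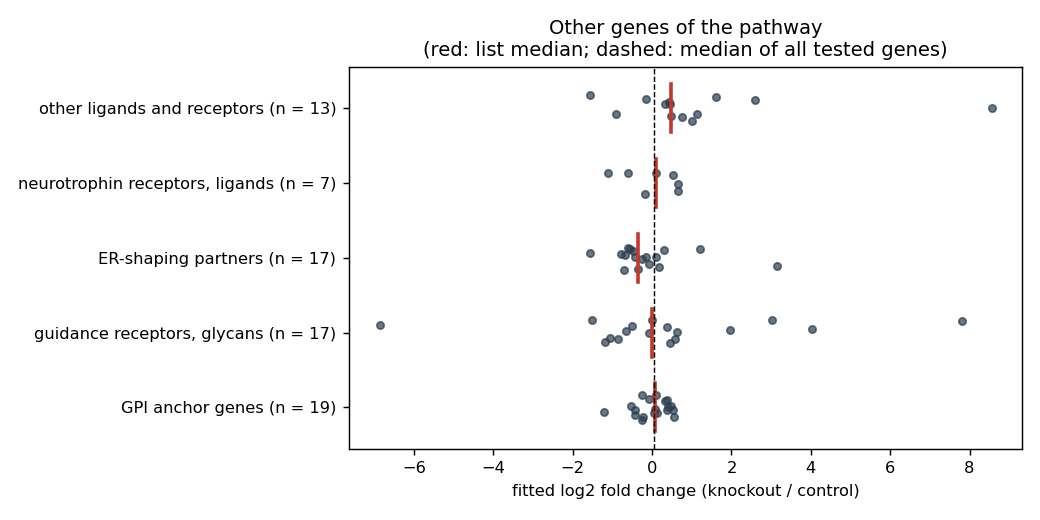
Fitted log2 fold change of each tested gene (points, jittered vertically) in the 5 lists of other pathway genes, with the list median in red and the median of all tested genes as a dashed line. Medians run from -0.36 for genes linked to reticulons or the endoplasmic reticulum (ER, labelled ER-shaping partners) to 0.47 for other ligands and receptors. Of the genes shown, 0 was called by edgeR.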

How the data were processed

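The tools named in the submitters' processing notes are TopHat2 (2.0.12), Bowtie2 (2.2.3) and HTSeq (0.6.0), and the build named there is mm9. The positions in the deposited tables are those of GRCm38 (99.9% of matched gene IDs overlap GENCODE M21), and are given as such. Each of 2 tables deposited by the authors gives raw counts of reads for the knockout and 1 control, and CPM values by the authors, which were not used. The members and lists were chosen with earlier results of these data known.

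Counts of the 16655 genes in both tables were fitted in edgeR 4.0.16 (R 4.3.3): filterByExpr, TMM factors of 1.059, 0.963 and 0.981, quasi-likelihood F test, two-sided, Benjamini-Hochberg adjustment over 15236 genes, threshold 0.05. Spread could be estimated only between the 2 controls (1 residual degree of freedom) and is taken to hold for the knockout too. The SE printed with a fitted log2 fold change was derived from the test. It is the absolute log2 fold change divided by the square root of the F statistic. Whether the samples are separate animals is not stated, and p-values therefore reflect the spread among these libraries, which may be technical. Intervals and the limit of 3 reads for a count of 0 cover counting error only.

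Named were all members, the 3 most abundant genes of each list and any called, up to 8 neighbours of Rtn4rl1 within 500 kb at a mean of 1 CPM or more by size of change, and the 5 most similar genes; departures are stated. Coding sequences came from GENCODE M21 and were aligned with Biopython 1.88. DESeq2 1.42.0 served as an alternative. The list of genes downstream of the receptor complex is not reported here.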

Additional observations from a re-analysis of the deposited data

How the results depend on the processing

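The count of genes called over the whole table, 6 in the main setting, was 0 with DESeq2 size factors, 0 with upper-quartile factors and 0 without a low-count filter (895, 818 and 948 genes at an unadjusted p under 0.05). It was 44 among genes at 5 CPM or more in at least 2 libraries, 10 with genes in either table and 215 with the DESeq2 Wald test. With 1 library against 1, no test was possible and no count is given. Without control 5 or control 6, the log2 fold change of Rtn4rl1 was -5.51 and -5.50. Over all alternatives Rtn4 ran from -0.38 to -0.04 and Lilrb4a from 2.18 (its locus summed, a setting added after the data were seen) to 2.73. Rtn3 (0.18) and Tnfrsf19 (-0.26) changed sign without control 6, and neither was called. List medians ran, without each control in turn, from 0.56 to 1.26 for other ligands and receptors, from -0.24 to 0.20 for neurotrophin genes, from -0.12 to 0.30 for guidance receptors and from -0.13 to 0.32 for GPI anchor genes. The causes of these shifts were not tested. Of the 5 genes most like Rtn4rl1, 1 remained with a prior count of 0.5. No paired analysis was possible because the knockout and control samples share no replicate number. At this depth 1 read is worth 0.0547, 0.0559 and 0.0741 CPM, so the levels of Ngfr and Tnfrsf19 rest on few reads.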

Other observations

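The RefSeq table of promoters (GRCm38.p6, 250 bases before to 50 after a start) had entries for 8 of the 10 genes, in 14 windows. These held between 1 and 47 CpG dinucleotides, against a median of 7 over 32851 windows of all genes. Rtn4r had 47, Rtn4rl2 had 35 and Ngfr had 23. Windows of Rtn4 held 1, 15 and 35, and those of Rtn1 held 3, 8 and 43. Rtn4rl1 and Lilrb4a had no entry.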
